A study of Mus musculus with 6 samples.

Results

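The 10 genes described here are immediate early genes and inducible heat shock genes, namely Fos, Fosb, Fosl1, Jun, Junb, Egr1, Atf3, Dusp1, Hspa1a and Hspa1b, a set taken as a sign of handling or acute stress. They were chosen by name out of 18193 measured genes, and each is given by 1 probe set, the brightest on average over the 6 arrays among those annotated to that gene alone. Expression was measured on 1 array per library in the colon of female C57BL/6J mice, an inbred strain, without treatment, with 3 libraries labelled distal colon and 3 labelled proximal colon. Per the design text both regions came from the same 3 animals, but which numbers share an animal is not given. All values are log2 expression as deposited, and all differences are distal minus proximal.

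Immediate early genes are transcribed within minutes of a stimulus from factors the cell already holds, so they need no new protein. Many encode transcription factors, among them Egr1, Atf3 and the Fos and Jun proteins, which pair to form AP-1. Dusp1 encodes a phosphatase that switches off MAP kinases. Hspa1a and Hspa1b encode the inducible Hsp70 chaperones, which heat shock factor 1 switches on when proteins misfold. In gut tissue these genes are known to respond to dissection and enzymatic dispersal as well as to growth factors and injury.

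A pair of libraries went against its labels, which bears on every comparison below. The posterior homeobox gene Hoxb13 was at 13.78, 13.29 and 6.65 in distal 1, 2 and 3, against 13.39, 6.53 and 6.48 in proximal 1, 2 and 3, all named by their labels. Slc51a, a bile acid exporter subunit, ran the other way, with 5.07, 5.94 and 12.05 in distal and 5.83, 12.47 and 12.39 in proximal libraries. Results are therefore given as labelled and again without proximal 1 and distal 3, and no library was moved to another label. All 14 colon epithelial markers and all 12 smooth muscle markers had means above 6.54, the lower quartile of all gene values, and the brightest were the keratin Krt19 (mean 14.73) and the myosin kinase Mylk (mean 14.35). In whole tissue, a change in the number of cells and a change in RNA per cell cannot be told apart.

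The promoters of Hspa1a, Hspa1b, Dusp1 and Fos are shown as sequence context, all of them genes with distal 1 and 2 lowest, since heat shock elements and cyclic AMP response elements are classic inputs of such genes. Sequences are from RefSeq, build GRCm38.p6, read 5′ to 3′ on the gene's strand and covering the 250 bases before the annotated start. A window was at hand for 8 of the 10 genes, all but Egr1 and Fosl1. In Hspa1a and Hspa1b the capitals mark GAANNTTC, the core of a heat shock element, in Dusp1 TGACGTCA, the full cyclic AMP response element, and in Fos TATAAA, the TATA box.
Hspa1a, chr17:34972157-34972406, minus strand: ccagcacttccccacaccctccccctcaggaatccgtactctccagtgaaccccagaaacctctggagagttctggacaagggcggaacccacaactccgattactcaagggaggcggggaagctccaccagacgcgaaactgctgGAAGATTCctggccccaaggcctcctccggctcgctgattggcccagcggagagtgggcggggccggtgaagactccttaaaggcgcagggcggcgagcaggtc
Hspa1b, chr17:34959239-34959488, minus strand: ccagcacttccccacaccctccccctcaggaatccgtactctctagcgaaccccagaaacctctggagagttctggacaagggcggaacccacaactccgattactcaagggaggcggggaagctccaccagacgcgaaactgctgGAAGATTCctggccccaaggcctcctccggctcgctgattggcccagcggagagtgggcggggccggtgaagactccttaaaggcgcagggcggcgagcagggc
Dusp1, chr17:26508473-26508722, minus strand: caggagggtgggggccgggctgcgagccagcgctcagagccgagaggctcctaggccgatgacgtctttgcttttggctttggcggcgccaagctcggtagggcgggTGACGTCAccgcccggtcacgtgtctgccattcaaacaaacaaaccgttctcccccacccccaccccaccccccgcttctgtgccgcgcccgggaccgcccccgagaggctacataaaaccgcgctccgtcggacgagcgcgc
Fos, chr12:85473640-85473889, plus strand: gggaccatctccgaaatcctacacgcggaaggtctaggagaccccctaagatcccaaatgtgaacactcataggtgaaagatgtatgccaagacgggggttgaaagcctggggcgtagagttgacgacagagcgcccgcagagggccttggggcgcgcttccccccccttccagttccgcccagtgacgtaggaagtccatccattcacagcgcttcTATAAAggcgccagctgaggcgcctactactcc

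Hspa1a and Hspa1b had the same base at 247 of 250 positions, and both held GAAGATTC at -104 to -97 from the start. GAANNTTC was also present in Jun, at -128 to -121, and in 6.69% of all 32851 promoter windows. TGACGTCA was present in Dusp1 at -143 to -136, and in 1.55% of windows. TATAAA was present in Fos at -33 to -28, and in 12.4% of windows. TGANTCA, the AP-1 site (6.75% of windows), and the CArG box of serum response factor (1.47%) were not found in the 8 windows. Both strands of the 250 bases were searched for these 5 motifs, and sites farther upstream were not searched. A match is a run of letters, not a measured binding site.

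The 10 genes were lowest in the libraries labelled distal 1 and distal 2. Those libraries held the lowest pair of values for 9 of the 10 genes, the exception being Junb, a pattern found in 20.2% of all genes. The mean deviation from each gene's own mean over the 10 genes was -0.57, -0.47 and 0.27 in distal 1, 2 and 3, against 0.09, 0.38 and 0.30 in proximal 1, 2 and 3. Over all genes this mean lay between -0.04 and 0.03 in every library. All 10 differences between distal and proximal libraries as labelled were below 0, as were 53.7% of those of all genes.

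**Figure D1:**
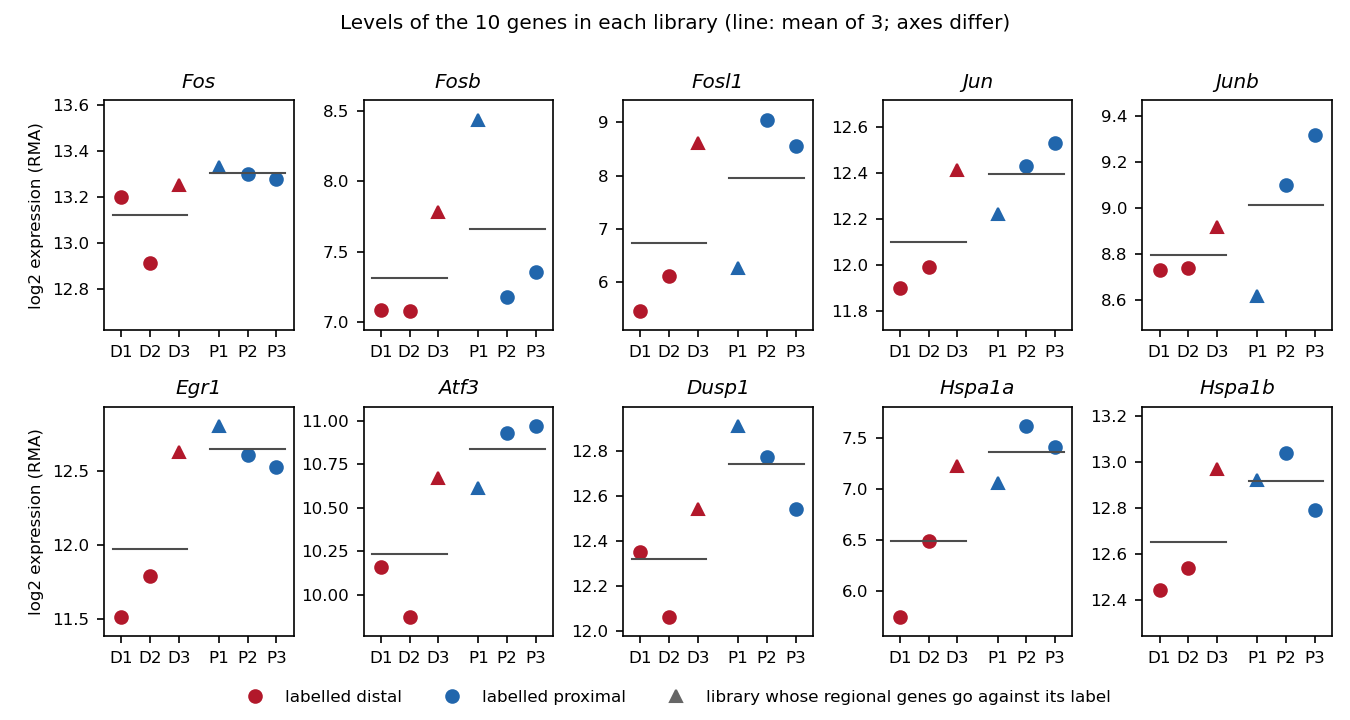
Each panel plots log2 expression of a gene in the 6 libraries, distal (D1 to D3, red) left of proximal (P1 to P3, blue), with a line at the mean of each 3 and triangles for the libraries whose regional genes go against their labels; vertical axes differ between panels. Distal 1 and distal 2 hold the lowest pair of values in 9 of 10 panels, and proximal 1 is highest for Fos, Fosb, Egr1 and Dusp1.

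Fos, the founding AP-1 subunit, was bright in all libraries and varied least. It measured 13.20, 12.91 and 13.25 in distal 1, 2 and 3, against 13.33, 13.30 and 13.28 in proximal 1, 2 and 3. The groups did not overlap, since the highest distal value lay just below the lowest proximal one. Fos averaged 13.12 ± 0.18 in distal and 13.30 ± 0.03 in proximal libraries (SD, n = 3 each), a difference of -0.18 (SE 0.12, limma adjusted p = 0.824). It was the sole member of the 10 whose groups did not overlap as labelled, where 4.60% of all genes had distal values wholly below proximal ones.

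Fosb, a Fos relative, stood out in proximal 1. It measured 7.09, 7.08 and 7.78 in distal 1, 2 and 3, against 8.44, 7.18 and 7.36 in proximal 1, 2 and 3. Proximal 1 was the highest and the other values overlapped between the groups, with a difference of -0.34 (SE 0.37, limma adjusted p = 0.834). Without proximal 1 alone the difference was 0.047 (limma adjusted p = 0.945), and without proximal 1 and distal 3 it was -0.19, so its sign changed with the libraries left out.

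Fosl1, which encodes the AP-1 subunit Fra-1, had the widest range of the members, 12.04-fold over the 6 libraries, wider than that of 99.3% of genes. It measured 5.46, 6.11 and 8.61 in distal 1, 2 and 3, against 6.26, 9.05 and 8.55 in proximal 1, 2 and 3. Here proximal 1 lay with distal 1 and 2, and distal 3 with proximal 2 and 3, the split that Hoxb13 and Slc51a showed. A second probe set gave 6.13, 6.05 and 7.23 in distal and 6.07, 7.43 and 7.06 in proximal libraries, the same split over a smaller range. As labelled the difference was -1.23 (SE 1.03, limma adjusted p = 0.824).

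Jun, the partner of Fos in AP-1, measured 11.90, 11.99 and 12.41 in distal 1, 2 and 3, against 12.22, 12.43 and 12.53 in proximal 1, 2 and 3. Distal 3 lay among the proximal values, and the difference was -0.29 (SE 0.17, limma adjusted p = 0.824). The second Jun probe set had a range of 1.25 where the chosen one had 0.63, with 9.96, 9.94 and 10.97 in distal and 10.40, 11.01 and 11.19 in proximal libraries. Both Jun probe sets had distal 1 and 2 lowest.

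Junb, a Jun relative that can restrain Jun activity, was the exception to the common order. It measured 8.73, 8.74 and 8.92 in distal 1, 2 and 3, against 8.62, 9.10 and 9.32 in proximal 1, 2 and 3. Its lowest value was in proximal 1, and the difference was -0.22 (SE 0.19, limma adjusted p = 0.824).

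Egr1, a zinc finger transcription factor switched on by growth factors, measured 11.51, 11.79 and 12.63 in distal 1, 2 and 3, against 12.81, 12.61 and 12.53 in proximal 1, 2 and 3. Distal 3 and the proximal libraries formed a tight group, and distal 1 and 2 lay well below it. The difference as labelled was -0.67 (SE 0.29, limma adjusted p = 0.824), and the groups overlapped through distal 3 alone.

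Atf3, a stress-induced member of the ATF family, measured 10.16, 9.87 and 10.67 in distal 1, 2 and 3, against 10.61, 10.93 and 10.97 in proximal 1, 2 and 3. Distal 3 and proximal 1 lay side by side between the other pairs. The difference was -0.60 (SE 0.22, limma adjusted p = 0.824).

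Dusp1 measured 12.35, 12.06 and 12.54 in distal 1, 2 and 3, against 12.91, 12.77 and 12.54 in proximal 1, 2 and 3. Its highest value was in proximal 1, distal 3 equalled proximal 3, and the difference was -0.42 (SE 0.16, limma adjusted p = 0.824).

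Hspa1a measured 5.74, 6.49 and 7.23 in distal 1, 2 and 3, against 7.06, 7.62 and 7.41 in proximal 1, 2 and 3, a 3.68-fold range. Distal 1 was by far the lowest, and the difference was -0.88 (SE 0.38, limma adjusted p = 0.824). Hspa1b measured 12.44, 12.54 and 12.97 in distal 1, 2 and 3, against 12.92, 13.04 and 12.79 in proximal 1, 2 and 3, with a difference of -0.27 (SE 0.17, limma adjusted p = 0.824). The chosen Hspa1b probe set is its brightest, and the other 2 moved more: one gave 9.05, 9.14 and 10.28 in distal and 9.90, 10.28 and 10.07 in proximal libraries, and the other 9.17, 9.29 and 10.17 against 9.84, 10.19 and 9.94. All 3 Hspa1b probe sets had distal 1 and 2 lowest. The coding sequences of Hspa1a and Hspa1b are near copies, so probes of either may bind transcripts of both, which was not tested, and the counts of members treat them as 2 genes.

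As labelled, then, no member passed the test. The fit called 0 of 10 members and 0.00% of all genes at an adjusted p of 0.05 (limma), and 2 of 10 members, Atf3 and Dusp1, at an unadjusted p of 0.05, where 3.05% of all genes passed at that level. The median difference was -0.38 over the 10 genes and -0.02 over all genes. Over 14 probe sets of the 10 genes, 12 had distal 1 and 2 lowest, and 7 genes had 1 probe set each.

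Without proximal 1 and distal 3, 5 of the 10 genes were lower in distal than in proximal libraries (limma, adjusted p of 0.05), and none was higher. The same fit called 19.2% of all genes, 11.5% lower and 7.71% higher in distal libraries. These libraries were dropped because of their own profiles, and 2 libraries per label remain, so these p-values overstate the evidence. Fosl1 averaged 5.79 ± 0.46 in distal 1 and 2 and 8.80 ± 0.35 in proximal 2 and 3 (SD, n = 2 each), a difference of -3.02 (SE 0.27, limma adjusted p = 0.00304), or 8.08-fold. Its second probe set had a much smaller gap, with 6.13 and 6.05 in distal 1 and 2 and 7.43 and 7.06 in proximal 2 and 3. Hspa1a was 2.64-fold lower (-1.40, SE 0.26, limma adjusted p = 0.0222). The distal means of both genes, 5.79 and 6.12, lay below the lower quartile of 6.54, where background signal can hide lower levels.

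Atf3 differed by -0.94 (SE 0.14, limma adjusted p = 0.0114) and Egr1 by -0.92 (SE 0.14, limma adjusted p = 0.0117), or 1.91-fold and 1.89-fold lower in distal libraries. Jun was 1.45-fold lower (-0.54, SE 0.11, limma adjusted p = 0.0293). Its second probe set had a wider gap, with 9.96 and 9.94 in distal 1 and 2 and 11.01 and 11.19 in proximal 2 and 3. Junb (-0.48, limma adjusted p = 0.0517), Hspa1b (-0.43, 0.0808), Dusp1 (-0.45, 0.101), Fos (-0.24, 0.286) and Fosb (-0.19, 0.325) did not pass. The other Hspa1b probe sets had wider gaps between distal 1 and 2 and proximal 2 and 3. They gave 9.05 and 9.14 against 10.28 and 10.07, and 9.17 and 9.29 against 10.19 and 9.94. The further probe sets of Fosl1, Jun and Hspa1b were not fitted without proximal 1 and distal 3. Distal 1 and 2 lay wholly below proximal 2 and 3 for 10 of 10 genes, as they did for 36.6% of all genes. The calls were fragile, since only 2 libraries stand for each label. With 1 of these 4 libraries left out, fewer members passed, as did fewer of all genes. The difference then ran from -3.34 to -2.69 for Fosl1, from -1.08 to -0.79 for Atf3 and from -1.06 to -0.78 for Egr1. It ran from -1.775 to -1.025 for Hspa1a and from -0.585 to -0.485 for Jun.

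**Figure D2:**
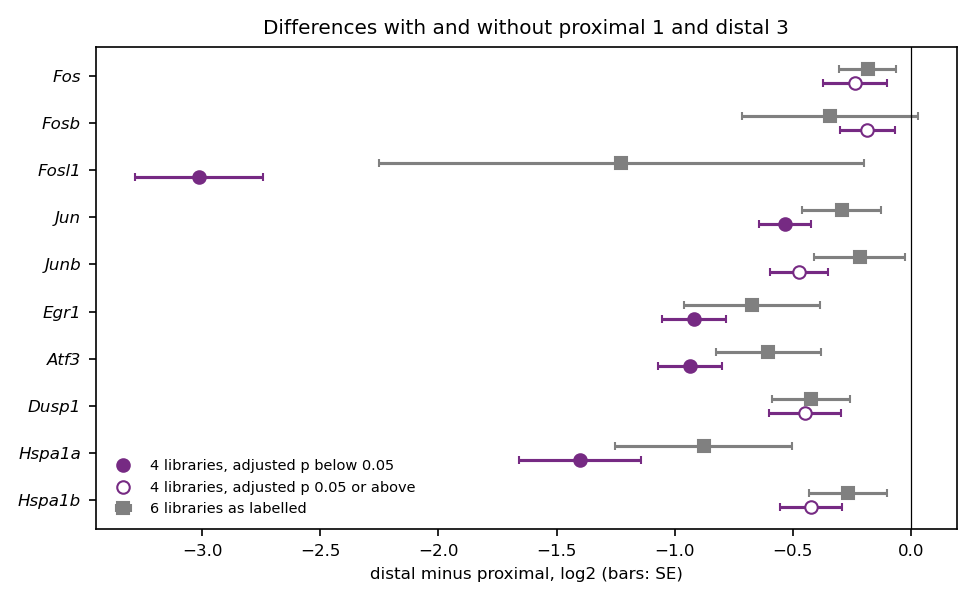
Differences of the 10 genes, distal minus proximal on the log2 scale with SE bars, in the 6 libraries as labelled (grey squares) and without proximal 1 and distal 3 (purple circles, filled where the limma adjusted p is below 0.05). All points lie below 0, and 5 circles are filled.

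The libraries left out did not place themselves alike. Distal 3 lay nearer proximal 2 and 3 than distal 1 and 2 for 9 of 10 members, beside 90.1% of the 3494 genes called without both libraries and 70.9% of all genes. Proximal 1 lay nearer proximal 2 and 3 for 8 of 10 members, all but Fosl1 and Junb, beside 24.4% of those called genes and 41.9% of all genes. Fosl1 was -2.54 from the proximal pair in proximal 1, while Egr1 was 0.24, Dusp1 0.26 and Fosb 1.17 above it. For Jun the distances to either pair were 0.28 and -0.26, so its place was in the middle. Of the 10 genes 4 were highest in proximal 1, beside 14.5% of all genes.

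The libraries labelled proximal 1 and distal 1 lay on the same side in regional genes, but not at equal levels. The regional gene Nts was at 7.32 in proximal 1 and 5.88 in distal 1, and Fxyd4 at 12.53 and 13.60. Several members differed between these libraries too. Fosb was 1.35 higher in proximal 1 than in distal 1, Hspa1a 1.32 and Egr1 1.30, or 2.55-fold, 2.50-fold and 2.46-fold; the Hspa1a value of distal 1, 5.74, lay below the lower quartile of 6.54, so its fold is uncertain. These 3 of 10 members were at least 2-fold higher in proximal 1, as were 1.05% of all genes. Fos (0.13) and Junb (-0.11) differed least. With 1 library on each side there is no test.

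**Figure D3:**
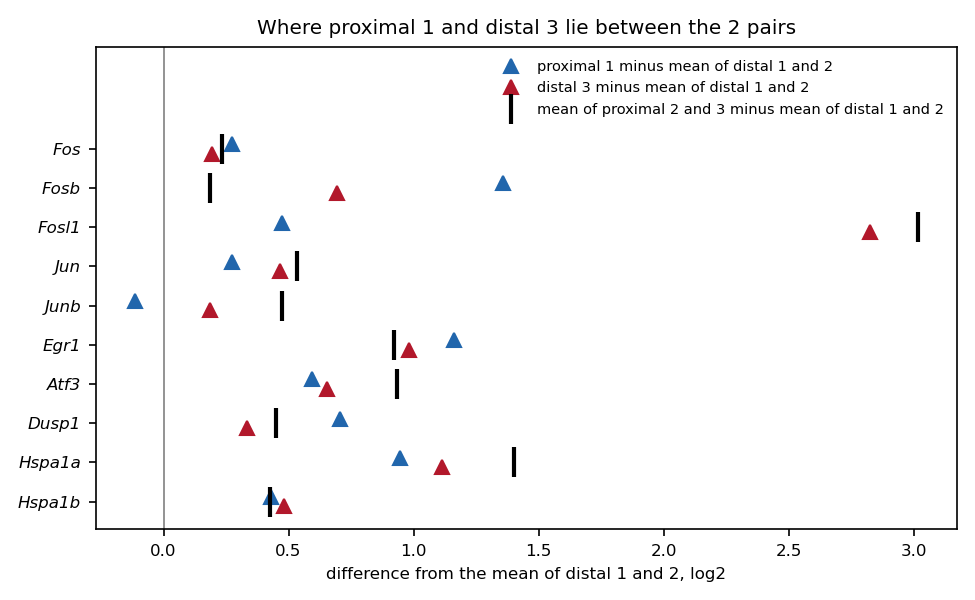
Log2 difference of proximal 1 (blue triangles), distal 3 (red triangles) and the mean of proximal 2 and 3 (black bars) from the mean of distal 1 and 2, for each gene. For Fosl1 proximal 1 lies at 0.48 and the proximal pair at 3.02, whereas for Egr1 proximal 1 lies at 1.16 and the pair at 0.92.

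Members followed each other to differing degrees. As a measure of likeness, the root mean square distance between deviations from the gene's own mean was taken over the 6 libraries. The nearest pair was Jun and Hspa1b, at 0.14, and Fosl1 was farthest from the rest, at 0.92 from Hspa1a to 1.52 from Fosb. Outside the set, the genes nearest to Fos were Nfyb, Apex1, Znrd1, Shc1 and Ascl2, at 0.02 to 0.03, where a flat profile lies at 0.14. Those nearest to Hspa1b were Defb1, Ppm1d, Noa1, Spc24 and Ect2, at 0.04 to 0.06, where a flat profile lies at 0.22. In all, 1312 genes were nearer to Fos, and 1159 nearer to Hspa1b, than a limit of 0.105 and 0.15 set from the range of each. These limits are not far below the distances of a flat profile, so genes that vary much less can fall within them. The counts therefore do not tell how common either profile was.

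Other immediate early genes showed the pattern in part. Of 56 measured, 0 passed as labelled, and 14 passed without proximal 1 and distal 3 (the share of all genes is 19.2%), 11 lower and 3 higher in distal libraries. Ier5, an immediate early response gene, differed by -1.03 (limma adjusted p = 0.0049), with 10.76, 10.65 and 11.58 in distal and 11.07, 11.69 and 11.77 in proximal libraries. Ptgs2, the inducible prostaglandin synthase, differed by -1.21 (limma adjusted p = 0.0107), with 8.42, 8.87 and 9.88 in distal and 9.87, 9.83 and 9.87 in proximal libraries. In Ptgs2 proximal 1 and distal 3 lay with the proximal pair, as in Egr1.

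Id3, an inhibitor of basic helix-loop-helix factors, was lower (-0.84, limma adjusted p = 0.00973), as was the DNA damage gene Gadd45a (-1.28, limma adjusted p = 0.0329). Tnfaip3, which dampens NF-kappa B signalling, was higher (1.08, limma adjusted p = 0.0107), and so was the matricellular gene Ccn2 (0.85, limma adjusted p = 0.0242). Gadd45g (0.89, limma adjusted p = 0.19) and Ccn1 (-0.06, limma adjusted p = 0.902) did not pass. The list's median difference was -0.10, beside -0.05 over all genes.

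Few of the constitutive and other chaperones passed. Of 43 measured out of 46, 4 passed without proximal 1 and distal 3 (9.30%, below the 19.2% of all genes), and 0 as labelled. Hspa13 (-0.81, limma adjusted p = 0.0145), Hspa14 (-0.51, 0.0298) and the Hsp70 and Hsp90 adaptor Stip1 (-0.44, 0.0465) were lower in distal libraries. Hspa12a was higher (0.66, limma adjusted p = 0.0448). The small heat shock genes Hspb1 (0.47, limma adjusted p = 0.0924) and Hspb6 (0.09, 0.723) and the collagen chaperone Serpinh1 (-0.23, 0.517) did not pass. Hspb7, chosen after its values were seen, had the widest range of the list, 3.01-fold beside 3.68-fold for Hspa1a, and its difference ran the other way (1.05, limma adjusted p = 0.0921). The mean deviation of this list stayed between -0.06 and 0.08 in every library.

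Kinases and transcription factors upstream of these genes were mixed. Of 25 measured out of 33, 4 passed without both libraries (16.0%, below the 19.2% of all genes), 2 in each direction as deposited, and 3 higher and 0 lower after median centring. The kinase Braf (0.91, limma adjusted p = 0.00805) and the serum response factor partner Elk4 (0.69, 0.0171) were higher in distal libraries, and the kinases Map2k2 (-0.51, 0.0368) and Mapk8 (-0.48, 0.0379) lower. Mrtfb, a serum response factor coactivator, did not pass (0.42, limma adjusted p = 0.10).

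Of 29 genes of the endoplasmic reticulum stress and amino acid response, 5 passed without both libraries (17.2%, below the 19.2% of all genes), 4 lower and 1 higher in distal libraries as deposited, and 4 and 2 after quantile normalization. Sesn2 (-1.15, limma adjusted p = 0.00464), Chac1 (-1.13, 0.00893), Sdf2l1 (-0.74, 0.0155) and Dnajb9 (-0.80, 0.0381) were lower, and Ern2, the stress sensor of gut epithelium, was higher (0.89, 0.0368). Chac1, a glutathione-degrading enzyme, measured 6.97, 6.61 and 7.84 in distal and 8.34, 7.93 and 7.91 in proximal libraries, so it too had distal 1 and 2 lowest and proximal 1 highest.

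Of 14 glucocorticoid response genes 4 passed without both libraries, all lower in distal libraries as deposited (11.5% of all genes were called lower), and 3 lower and 1 higher after quantile normalization. They were Pdk4 (-2.66, limma adjusted p = 0.000908), Fkbp5 (-1.03, 0.00835), Sgk1 (-0.56, 0.0381) and Cdkn1a (-0.46, 0.0459). The metallothionein Mt2 (-0.91, limma adjusted p = 0.0677) and Tsc22d3 (-0.63, 0.246) did not pass. Proximal 1 lay nearer the proximal pair for 3 of these 14 genes, where it did so for 8 of the 10 members. Sgk1 is also in the immediate early list.

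Some other measures differed between libraries as well, not all in the members' order. The difference between the 3′ and 5′ control probe sets of Gapdh, a measure of RNA integrity and of amplification, was 0.71, 0.67 and 0.58 in distal 1, 2 and 3, against 0.62, 0.51 and 0.53 in proximal 1, 2 and 3. That of Actb was 0.45, 0.49 and 0.32 in distal and 0.43, 0.32 and 0.36 in proximal libraries, so both were highest in distal 1 and 2, where the members were lowest. That of Tfrc was 3.96, 3.49 and 3.58 in distal and 3.75, 3.61 and 3.73 in proximal libraries, highest in distal 1 and lowest in distal 2. Proximal 1 came next after distal 1 and 2 for Gapdh and Actb, and the members' mean deviation there was 0.09. The part of RNA integrity in the members' differences was not tested.

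The summed level of 12 macrophage and dendritic cell markers, all above the lower quartile, lay between 13.71 and 14.005 in distal and between 14.09 and 14.37 in proximal libraries (log2 of the sum). This sum was led by Lyz2 (mean 12.42) and was nearly equal in distal 1 (13.999) and distal 3 (14.005). Single markers did not all follow it. Distal 1 and 2 held the lowest pair of values for 6 of the 12 markers, beside 20.2% of all genes. Without proximal 1 and distal 3, 5 of the 12 were lower in distal libraries and 0 higher, beside 11.5% and 7.71% of all genes. The summed level of 9 lymphocyte markers out of 12 lay between 12.13 and 12.30 in distal and between 12.50 and 13.24 in proximal libraries. Its value in distal 3 (12.17) lay between those of distal 1 (12.13) and distal 2 (12.30), and its markers ran both ways. Without proximal 1 and distal 3, 4 of these 9 genes were lower in distal libraries and 3 higher, the T cell gene Cd3e (-1.33, limma adjusted p = 0.00244) among the lower and the B cell gene Ms4a1 (2.18, limma adjusted p = 0.000778) among the higher; both were picked once their values had been seen. The value of 13.24, in proximal 1, was carried by the immunoglobulin gene Ighm, at 12.57 there and between 9.34 and 10.67 in the other libraries. The sum of 8 neutrophil markers out of 10, with 2 above the lower quartile, lay between 8.75 and 9.32 in distal and between 9.30 and 9.64 in proximal libraries. Its brightest marker on average, Mmp9, measured 6.76, 5.80 and 8.02 in distal and 6.94, 8.46 and 8.85 in proximal libraries. Without proximal 1 and distal 3, 1 of the 8 genes, Mmp9, was lower in distal libraries and 1, Camp, was higher. The part of these cells in the members' differences was not tested.

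The summed level of 10 endothelial markers (12.47 to 12.72 in distal, 12.63 to 12.76 in proximal libraries), 10 fibroblast markers (15.18 to 15.51 and 15.15 to 15.40) and 8 adipocyte markers out of 10 (13.58 to 14.16 and 13.76 to 14.51) overlapped between the labels. So did the sums of 14 epithelial (17.80 to 17.96 in distal, 17.75 to 17.96 in proximal), 12 smooth muscle (17.20 to 17.27 and 16.93 to 17.20) and 12 neuronal and glial markers out of 14 (13.07 to 13.58 and 12.87 to 13.53). Without proximal 1 and distal 3, the epithelial sum was lower in distal (17.80 and 17.82) than in proximal libraries (17.94 and 17.96). Smooth muscle (17.20 and 17.27 against 17.08 and 16.93), fibroblast (15.51 and 15.35 against 15.15 and 15.28) and neuronal and glial sums (13.35 and 13.58 against 13.13 and 12.87) were then higher in distal libraries. Endothelial and adipocyte sums still overlapped. The part of these cells in the members' differences was not tested. Pancreatic acinar markers, 10 of 13 measured and led by Cela1, summed to 15.96, 13.55 and 12.32 in distal 1, 2 and 3. In proximal 1, 2 and 3 they summed to 15.93, 12.31 and 12.31. Outside distal 1 and proximal 1 the sum was mostly Cela1, at 13.43 in distal 2. Each other acinar marker was far higher in distal 1 and proximal 1 than elsewhere, where none lay above 8.74. Ctrb1, as an example, measured 12.32, 4.88 and 5.32 in distal and 12.51, 5.94 and 5.14 in proximal libraries. The part of acinar cells in the members' values was not tested.

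**Figure D4:**
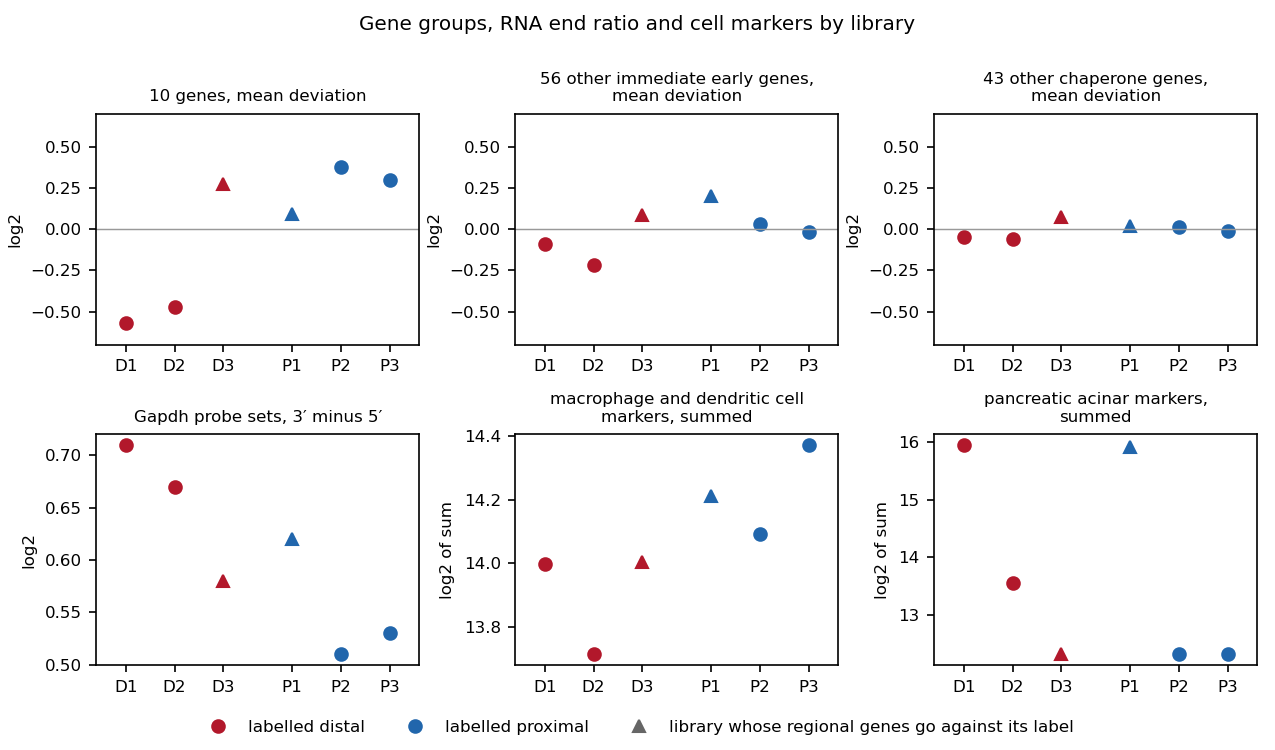
Each panel plots 1 measure in the 6 libraries, distal (red) left of proximal (blue), with triangles for the libraries whose regional genes go against their labels: mean log2 deviation of the 10 genes, of 56 other immediate early genes and of 43 other chaperone genes, the 3′ minus 5′ difference of Gapdh, and the log2 summed level of macrophage and of acinar markers. The 10 genes are lowest in distal 1 and 2 (-0.57 and -0.47), where the Gapdh difference is highest (0.71 and 0.67). In proximal 1 the Gapdh difference is 0.62 and the mean deviation of the 10 genes 0.09.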

How the data were processed

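Total RNA from 6 tissue samples was measured on 1 array each. Per the labels' protocols, RNA was taken from Trizol homogenates and amplified to biotin-labelled cDNA with NuGEN Ovation kits. The deposited log2 values are the authors' own, from RMA in Partek 6.5 per the submitters' processing notes; the log2 scale is read from their range of 2.91 to 15.16. RMA equalises the arrays' distributions, which hides a change common to most genes, and precision is limited by the number of arrays.

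Of 45101 probe sets 64 are controls, 34945 have 1 gene symbol, 932 several and 9160 none. Symbols were updated through gene identifiers for 34741 of them. The probe set with the highest mean stood for each of 18193 genes. Groups were taken from the tissue labels, and libraries are named by the numbers in their titles. The test was limma 3.58.1 (R 4.3.3; lmFit, then eBayes; two-sided; p-values adjusted by Benjamini-Hochberg across every gene), without a block. Its p-values reflect only how these libraries vary, which may be technical in part. The calculation was tested on simulated data.

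Alternatives were another scaling (quantile, median centring), a filter on dim genes, the mean of probe sets, each probe set alone, another variance prior, array weights, the replicate block and leaving out libraries. Same-numbered libraries correlated at 0.677, -0.448 and 0.678 in their deviations from group means for numbers 1, 2 and 3. Unlike numbers gave values as large, 0.728 for distal 3 with proximal 2 and -0.767 for distal 3 with proximal 1. Proximal 1 and distal 3 go against their labels and so shape these deviations. The correlations therefore cannot tell which numbers share an animal. The numbers were not taken as pairs because the design text does not link them. Any pair of libraries shared at most 3.19% identical gene values.

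Named genes were all members, up to 4 genes per pathway list with the smallest p without both libraries and up to 4 with the largest range among brighter genes, the 5 genes nearest to Fos and to Hspa1b, regional genes and marker sums. The members, lists and the fit without proximal 1 and distal 3 were chosen with earlier results of these data known.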

Additional observations from a re-analysis of the deposited data

How the results depend on the processing

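As labelled, limma called 0 of 18193 genes and 0 of the 10 members, with 554 genes at an unadjusted p of 0.05. The count of members, and of each of the 5 pathway lists, was also 0 with quantile normalization, median centring, dim genes left out, means of probe sets, each probe set alone and a trended and robust prior. Leaving out each of the 6 libraries in turn gave 0 genes, 0 members and 0 list genes. With the number as a replicate block, 0 genes and 0 members were called, so it changed no call.

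Without proximal 1 and distal 3, 3494 genes and 5 members were called, and 3455 and 5 after quantile normalization, 3440 and 5 after median centring. The immediate early list gave 14, 14 and 13 calls in that order, the heat shock list 4, 3 and 3, the upstream signalling list 4, 3 and 3, the endoplasmic reticulum stress list 5, 6 and 5, and the glucocorticoid list 4, 4 and 3. With 1 of these 4 libraries left out, the single library is taken to be as variable as the opposite pair. The count then ran from 146 to 1633 genes, 0 to 1 member, and in those lists 0 to 7, 0 to 3, 0 to 1, 0 to 4 and 0 to 2.

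With arrays weighted, 5585 of 18193 genes and 7 of 10 members were called. In those lists the counts were 16 of 56, 7 of 43, 11 of 25, 10 of 29 and 8 of 14. Dusp1 and Hspa1b passed beside the 5. Weights were low for distal 3 (0.291) and proximal 1 (0.322), but also for distal 2 (0.403). They therefore did not single out the libraries that go against their labels. The weighted fit leaned most on proximal 2 (6.72) and distal 1 (2.51), so its p-values overstate the evidence. Of 206 differences of single members under the alternatives, 182 kept their sign and stayed short of the threshold, 23 passed it, and 1 reversed, Fosb without proximal 1 (0.047), which ran from -0.58 to 0.047 with 1 of 6 libraries left out. Proximal 1 is a library that held its highest value. With 1 of 6 libraries left out, the median difference of the members ran from -0.56 to -0.27. Few arrays and no detection calls limit the dim genes Fosl1 and Hspa1a most.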

Other observations

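Proximal 1 stood highest for part of the other inducible genes. Among 29 endoplasmic reticulum stress and amino acid response genes it was the highest of 6 libraries for 19, or 65.5%, and among 56 other immediate early genes for 17, or 30.4%, beside 14.5% of all genes. It was highest for 18.6% of the other chaperone genes, 20.0% of the upstream signalling genes and 14.3% of the glucocorticoid response genes, and no test of these shares was run. Asns, the asparagine synthetase, measured 10.96, 11.10 and 11.28 in distal 1, 2 and 3, against 11.71, 11.25 and 11.32 in proximal 1, 2 and 3. Herpud1, of endoplasmic reticulum protein degradation, measured 12.30, 12.26 and 12.12 in distal and 12.63, 11.98 and 11.86 in proximal libraries. Both genes were picked once their values had been seen.

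The matricellular gene Ccn1 measured 10.10, 9.37 and 9.59 in distal 1, 2 and 3, against 11.43, 9.97 and 9.62 in proximal 1, 2 and 3. Its relative Ccn2 measured 11.37, 11.25 and 10.62 in distal and 12.19, 10.66 and 10.27 in proximal libraries. Gadd45g, a growth arrest gene, measured 11.59 in proximal 1 and between 9.64 and 11.26 in the other libraries. All 3 were highest in proximal 1, the library where Fosb, Egr1 and Dusp1 were also highest.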
